A study of Mus musculus with 24 samples.

Results

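The regions described here are the open chromatin and H3K27ac peaks of 5 regulators of cartilage formation, Sox5, Sox6, Wwp2, Trps1 and Nkx3-2. A peak was tied to one of them when its midpoint lay in the span of that gene, or when that gene's span was the nearest protein-coding one within 1 Mb (mm10). After the peaks of the 8 ATAC-seq lists of single libraries were merged, 241 of 157342 regions belonged to the 5 genes: 89 to Sox5, 61 to Sox6, 22 to Wwp2, 62 to Trps1 and 7 to Nkx3-2. They came from 677 of the 465844 peaks in these lists. In mm10 the spans are chr6:143828425-144782287 (Sox5), chr7:115470872-116040776 (Sox6), chr8:107436334-107559290 (Wwp2), chr15:50654757-50890631 (Trps1) and chr5:41761483-41764220 (Nkx3-2). The 3 combined ATAC lists gave 166 of 133861 peaks, and the 2 combined H3K27ac lists gave 213 of 87463.

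The study profiled chromatin in wild-type C57BL/6 mouse embryos by ATAC-seq, in which a transposase cuts accessible DNA, and by CUT&Tag for H3K27ac, a histone mark of active promoters and enhancers. The groups used were Meckel's cartilage (MC), the rod around which the lower jaw forms, at E14.5, with 3 ATAC and 3 H3K27ac libraries; forelimb cartilage (FL) at E14.5, with 3 and 3; and dissected mandibular processes at E12.5, with 2 ATAC libraries. The E12.5 tissue was the whole process and not a cartilage bar, so stage and tissue differ together and cannot be told apart in any comparison with it. The labels do not say whether replicates were separate embryos or pools, so p-values measure the spread between libraries only.

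SOX5 and SOX6 are closely related transcription factors of the SOXD group, which bind DNA beside SOX9 and raise the activity of cartilage matrix genes. WWP2 is a ubiquitin ligase whose gene also carries the microRNA gene Mir140, a chondrocyte microRNA. TRPS1 is a GATA-type zinc finger repressor active in growth plate and joint, and NKX3-2 is a homeodomain repressor that promotes the chondrocyte fate and is needed at the jaw joint. Large transcription factor genes of this kind are often surrounded by many distal enhancers, while a gene such as Nkx3-2 is compact.

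Peak lists held 43205 to 54192 peaks in MC, 47152 to 70636 in FL, and 74706 and 70042 in E12.5 replicates 1 and 2; read depth is unknown. E12.5 replicate 1 stood apart: its peaks covered 85.6 Mb against 48.2 Mb in replicate 2, yet it held 26 of the 241 regions (10.8%) against 101 (41.9%) in replicate 2. Over all regions the 2 libraries held 43.4% and 40.3%. Differences in cover from E12.5 are therefore given with and without replicate 1. Peaks lay at all 6 chondrocyte markers in each group, and their summed cover was 48.5 to 57.9 kb in MC, 32.2 to 44.8 kb in FL, and 84.3 and 32.8 kb in the 2 E12.5 lists. Of the other markers, Hbb-bs and Gata1 (blood) had no peak in any list, Krt5 (epithelium) and Ibsp (bone) had none in FL, and Bglap (bone) had none in MC. The 6 blood and immune markers summed to 18.8 to 19.7 kb in MC, 22.3 to 29.0 kb in FL and 10.9 and 27.3 kb at E12.5, and the 6 neuron and Schwann markers to 6.43 to 16.6, 7.27 to 7.72, and 20.8 and 10.7 kb. The skeletal muscle markers (7) summed to 6.21 to 10.7, 6.96 to 10.8, and 14.7 and 11.6 kb, the endothelial ones (6) to 30.3 to 33.3, 30.7 to 35.5, and 24.7 and 30.4 kb, the epithelial ones (6) to 8.46 to 10.3, 9.60 to 13.6, and 13.5 and 16.1 kb, and the osteoblast ones (4) to 3.31 to 8.99, 3.18 to 5.64, and 7.32 and 5.87 kb. Fewer cells of a type and less open chromatin per cell cannot be told apart in such bulk samples.

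RefSeq (GRCm38.p6, the mm10 build) gives windows of 300 bases around 9 starts of Sox5, Sox6, Wwp2 and Nkx3-2. The first 3 windows are shown because they exceed the median of 7 CG pairs over all windows and are open in most libraries. Every CG is in capitals. They lie at chr5:41764171-41764470 (Nkx3-2, minus strand, peak in all 8 lists), chr7:116030998-116031297 (Sox6, minus strand, 7 lists) and chr8:107436120-107436419 (Wwp2, plus strand, 5 lists). The Sox6 window is upstream of the internal Sox6 starts only, because the start window at chr7:116038695-116038994 lies further upstream.
Nkx3-2 start: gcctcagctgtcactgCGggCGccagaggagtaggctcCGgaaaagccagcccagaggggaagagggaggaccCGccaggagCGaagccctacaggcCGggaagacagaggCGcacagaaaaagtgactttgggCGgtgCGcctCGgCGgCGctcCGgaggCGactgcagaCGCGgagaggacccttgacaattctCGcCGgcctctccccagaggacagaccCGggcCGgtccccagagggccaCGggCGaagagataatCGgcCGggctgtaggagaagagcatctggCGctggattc
Sox6 upstream start: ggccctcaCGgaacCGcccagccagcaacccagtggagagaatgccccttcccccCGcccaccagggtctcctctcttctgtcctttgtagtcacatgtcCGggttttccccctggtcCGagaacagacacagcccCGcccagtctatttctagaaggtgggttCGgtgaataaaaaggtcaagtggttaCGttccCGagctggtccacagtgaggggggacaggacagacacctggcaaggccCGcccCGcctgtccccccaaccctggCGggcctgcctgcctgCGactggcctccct
Wwp2 start: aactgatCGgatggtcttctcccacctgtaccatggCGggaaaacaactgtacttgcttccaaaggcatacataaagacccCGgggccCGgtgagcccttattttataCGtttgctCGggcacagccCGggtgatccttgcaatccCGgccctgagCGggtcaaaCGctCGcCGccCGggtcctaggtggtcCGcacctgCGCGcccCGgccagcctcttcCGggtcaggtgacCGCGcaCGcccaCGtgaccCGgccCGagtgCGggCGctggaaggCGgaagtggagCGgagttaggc
They hold 25, 13 and 28 CG pairs in that order. Across the 32619 windows of all genes, the median was 23 for the 11421 windows with a peak in all 8 lists and 3 for the 13741 with none. The lower quartile of the windows in all 8 lists was 16, above the count of the Sox6 window. The Wwp2 window had a peak in MC replicates 2 and 3, FL replicates 1 and 2 and E12.5 replicate 2.

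The other windows of Sox6 and the one of Sox5 held 2 to 11 CG pairs. A pair of internal Sox6 starts is shown because one had peaks and the other none, although both hold the core letters ACAAAG or ACAATG bound by SOX proteins (in capitals, either strand; the cores do not overlap each other). The window at chr7:115824661-115824960 (minus strand) had 4 CG pairs and a peak in MC replicate 1, all 3 FL libraries and E12.5 replicate 2. The window at chr7:115995037-115995336 (minus strand) had 2 CG pairs and no peak in any list.
Sox6 internal start with peaks: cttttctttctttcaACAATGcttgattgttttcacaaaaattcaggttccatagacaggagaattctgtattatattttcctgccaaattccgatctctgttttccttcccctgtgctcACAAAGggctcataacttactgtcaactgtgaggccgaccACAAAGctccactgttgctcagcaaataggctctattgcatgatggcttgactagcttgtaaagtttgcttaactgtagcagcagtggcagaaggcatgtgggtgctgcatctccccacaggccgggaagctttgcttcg
Sox6 internal start without peaks: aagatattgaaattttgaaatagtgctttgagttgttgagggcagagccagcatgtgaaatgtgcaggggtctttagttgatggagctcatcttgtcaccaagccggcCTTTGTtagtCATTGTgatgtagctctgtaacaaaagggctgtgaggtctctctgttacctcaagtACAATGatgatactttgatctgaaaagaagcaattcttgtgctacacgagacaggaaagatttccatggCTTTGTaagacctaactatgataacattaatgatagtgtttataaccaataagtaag
The window with peaks holds 3 cores and had H3K27ac peaks of both tissues, and the one without peaks holds 4 and had none. At least 1 core was present in 28.3% of all windows and 3 or more in 0.769%. The Sox5 window at chr6:143947057-143947356 had no ATAC peak in any list, 3 CG pairs and 1 core, while H3K27ac peaks of both tissues covered it. Of the remaining Sox6 windows, the most upstream, chr7:116038695-116038994, had a peak in MC replicate 3, FL replicates 2 and 3 and E12.5 replicate 2. It lies within a wider region, chr7:116037971-116040719, that was open in all 8 lists. The Sox6 windows at chr7:115846091-115846390 and chr7:115801560-115801859 had no ATAC peak.

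Mir140 lies at chr8:107551244-107551313 (plus strand), 114.9 kb past the lower end of Wwp2 and inside that gene. Its hairpin is shown with the mmu-miR-140-3p arm in capitals, and that strand alone with its seed, bases 2 to 8, in capitals.
Mir140 hairpin: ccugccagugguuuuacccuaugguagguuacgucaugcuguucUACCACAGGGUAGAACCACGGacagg
mmu-miR-140-3p: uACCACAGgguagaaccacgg
A region of 903 bases across the hairpin, chr8:107550610-107551512, had a peak in MC replicates 1 and 3 and in no FL or E12.5 library, at the 17.6th and 33.8th percentile of peak score in those 2 lists. The hairpin itself was covered by the peak of MC replicate 3 alone. No combined ATAC list held a peak at this region, while H3K27ac peaks of both tissues covered it. In E12.5 replicate 1, separate peaks flanked the region at chr8:107549702-107550480 and chr8:107551539-107553243, at the 32.8th and 74.8th percentile.

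The first comparison asks where jaw and limb cartilage differ in the open chromatin of these regulators. The 3 large genes Sox5, Sox6 and Trps1 had less ATAC peak cover in MC than in FL in every library, Wwp2 leaned the other way with overlapping libraries, and Nkx3-2 overlapped. Cover is the kb of peaks tied to a gene, scaled so that each list has the same total. Sox5 had 18.6, 15.5 and 21.5 kb in the MC libraries, and 26.8, 25.4 and 26.9 kb in the FL libraries. All 3 MC libraries lay below all 3 FL libraries, with means of 18.5 ± 2.98 and 26.4 ± 0.829 kb (SD, n = 3 each). Sox6 had 17.1, 17.9 and 19.5 kb in the MC libraries, against 24.2, 27.7 and 24.3 kb in the FL libraries, again without overlap. Its MC mean was 18.2 ± 1.20 kb and its FL mean 25.4 ± 1.98 kb. Trps1 had 12.8, 9.68 and 16.1 kb in the MC libraries, against 23.7, 17.7 and 18.3 kb in the FL libraries, with means of 12.9 ± 3.23 and 19.9 ± 3.31 kb. The highest MC library was again below the lowest FL library. Among all 16333 genes tested, 8.94% had every MC list below every FL list and 9.15% had every MC list above every FL list. Among the 799 genes with a mean cover of at least 10 kb, a stratum chosen after the data were seen that takes in these 3 genes, 21.5% had every MC list below every FL list, against 3 of these 3. The 3 genes also did not overlap in cover as listed, without scaling. In that setting 8.68% of 16384 genes had every MC list below every FL list.

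Wwp2 had 8.35, 11.3 and 14.6 kb in the MC libraries, against 9.88, 8.43 and 6.72 kb in the FL libraries. The highest values were MC replicates 3 and 2, but MC replicate 1 fell among the FL values, and the means were 11.4 ± 3.14 and 8.35 ± 1.58 kb. Nkx3-2 had 1.93, 2.29 and 3.49 kb in the MC libraries, against 3.43, 1.66 and 5.46 kb in the FL libraries, so the 2 tissues were interleaved. These covers are totals, not levels per length, and are not compared between genes, whose spans run from 2.74 kb (Nkx3-2) through 123 kb (Wwp2), 235.9 kb (Trps1) and 569.9 kb (Sox6) to 953.9 kb (Sox5).

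In the limma fit over all 8 lists, 0 of 16333 genes (0%) had a Benjamini-Hochberg adjusted p under 0.05 for MC minus FL, and 839 had an unadjusted p under 0.05. The log2 differences (MC minus FL, on a log2 scale of kb + 0.5) were -0.51 (SE 0.552) for Sox5, -0.47 (SE 0.44) for Sox6, -0.62 (SE 0.745) for Trps1, 0.41 (SE 0.345) for Wwp2 and -0.30 (SE 0.44) for Nkx3-2. Each had an adjusted p of 1 in this limma fit. The median over all genes was 0.0305, and Trps1, Sox5 and Sox6 stood at the 9.45th, 12.9th and 14.4th percentiles and Wwp2 at the 80.2nd. The spread of this fit includes the disagreement of the E12.5 libraries: with MC and FL alone, limma called 8 genes and gave Sox5, Sox6 and Trps1 adjusted p-values of 0.364, 0.363 and 0.368. Limma also called 8 genes when either E12.5 library was left out. The part of marker content in these differences was not tested.

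**Figure D1:**
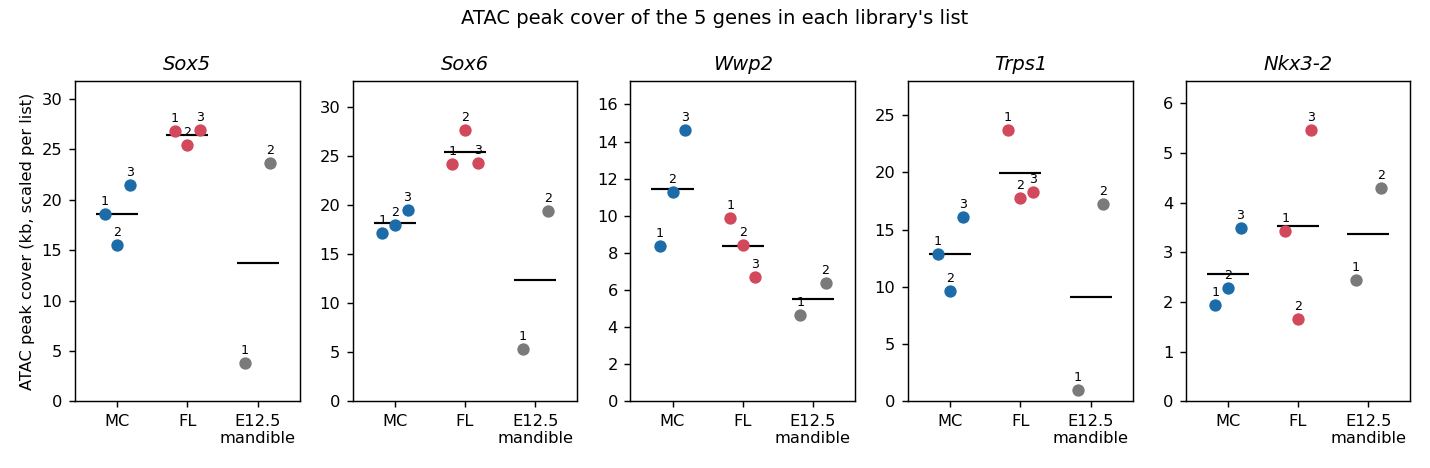
ATAC peak cover in kb (y axis, scaled to the same total per list, a separate scale per gene) of each gene in the 3 MC, 3 FL and 2 E12.5 mandible lists. Points are libraries with their replicate numbers, and bars are group means. For Sox5, Sox6 and Trps1 every MC point lies below every FL point, and the 2 E12.5 points are far apart.

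Peak by peak, few regions of the 5 genes separated the 2 cartilages in every library. MC-only regions, called in all 3 MC lists and no FL list, numbered 5 at the 5 genes, and FL-only regions numbered 1. Of the 202 member regions with a peak in an E14.5 list these are 2.48% and 0.495%, against 0.529% (577) and 2.34% (2556) of all 109068 such regions. With the looser rule of 2 or 3 lists of one tissue and none of the other, added after the data were seen, the counts were 13 MC and 17 FL regions (6.44% and 8.42%, against 2.92% and 8.60% of all). Single libraries moved the strict counts: there were 11 MC-only regions without MC replicate 2, and FL-only regions numbered 11, 8, 7, 3 and 2 without FL replicate 1, FL replicate 3, MC replicate 3, MC replicate 1 and MC replicate 2. The shares of all regions are not given for these counts with a library left out. FL replicate 2 held 119 of the 241 regions, and FL replicates 1 and 3 held 96 and 75. MC replicates 1, 2 and 3 held 70, 53 and 78.

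Sox5 and Sox6 each had 2 MC-only regions and Wwp2 had 1. At Sox5, chr6:143570960-143572287 lay 257 kb below the gene span and stood at the 34.8th, 61.9th and 77.1st percentile of peak score in MC replicates 1 to 3; H3K27ac peaks of both tissues covered it. The other Sox5 region, chr6:144418562-144419347 inside the gene, ranked at the 52.1st, 25.9th and 0.343rd percentile and had no H3K27ac peak in either tissue. At Sox6, chr7:115485358-115486654 inside the gene ranked at the 26.0th, 32.1st and 54.6th percentile and had H3K27ac in MC alone. The second, chr7:115379432-115380206, lay 91.1 kb below the span, ranked at the 45.2nd, 9.24th and 54.3rd percentile and had H3K27ac in both tissues. The Wwp2 region, chr8:107498135-107499188, lay inside the gene, 61.8 kb from its start, ranked at the 26.4th, 35.4th and 35.9th percentile and had H3K27ac in both. Several of these ranks are low, and with the better-scoring 50% of each list 0 MC-only and 3 FL-only regions were counted. Of the 5, the 2 at Sox5 and the first at Sox6 were also called in E12.5 replicate 2, and none in E12.5 replicate 1; over all MC-only regions, 45.4% and 46.3% were called in these lists. The FL-only region, chr6:143703490-143704890, lay 124 kb below Sox5, ranked at the 71.8th, 37.6th and 67.7th percentile in FL and had an H3K27ac peak in MC and none in FL.

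Regions open in all 8 lists numbered 11 at the 5 genes, 4.56% of the 241, against 10.0% of all regions. With E12.5 replicate 1 left out there were 24, but the share of all regions is not given for that setting. E12.5 replicate 1 held 10.8% of the 241 regions, against 43.4% of all regions. By the best worst rank over the 8 lists, the strongest at Sox6 was chr7:116030043-116035082, with percentiles of 72.9 or more in every list. It takes in the first Sox6 start window shown above. At Sox5 it was chr6:144208469-144210961 inside the gene (71.6 or more), at Trps1 chr15:50697356-50698996 inside the gene (51.4 or more), and at Wwp2 chr8:107543822-107545472 inside the gene, 107 kb from its start (43.4 or more). At Nkx3-2 it was chr5:41762498-41765424 over the gene itself, which ranked at the 4.65th percentile in MC replicate 1 and between 73.5 and 90.9 in the other 7 lists. All 5 carried H3K27ac in both tissues. The upper ends of Sox5 (chr6:144780899-144783653), Sox6 (chr7:116037971-116040719) and Trps1 (chr15:50887676-50890831) were also open in all 8 lists.

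**Figure D2:**
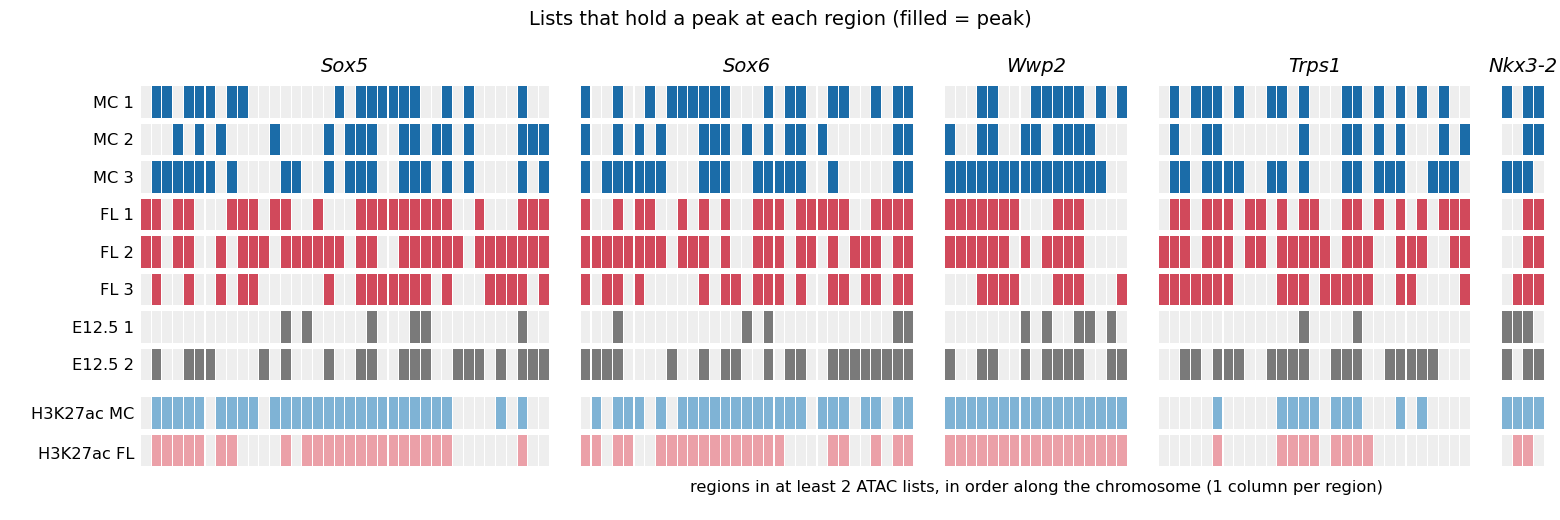
Each column is 1 of the 119 regions of the 5 genes called in at least 2 ATAC lists, in order along the chromosome within each gene. Rows are the 8 ATAC lists and the combined H3K27ac lists of MC and FL, and filled cells mark a peak. E12.5 replicate 1 is nearly empty at Sox5, Sox6 and Trps1, and the outer columns of Trps1 have few H3K27ac peaks.

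H3K27ac covered the ATAC regions of the 5 genes unevenly. Of the regions called in at least 2 lists, all 17 of Wwp2 had an H3K27ac peak in MC and in FL. All 4 of Nkx3-2 had one in MC and 2 had one in FL. For Sox5 the counts were 28 of 38 in MC and 23 in FL, and for Sox6 24 of 31 in MC and 21 in FL. For Trps1 they were 10 of 29 in MC and 9 in FL, and 18 (62.1%) had none in either tissue, against 28.6% of all 75359 such regions. Of the 21 Trps1 regions outside the gene span, 17 (81.0%) had no H3K27ac peak, against 41.0% of all regions outside genes; of the 8 inside it, 1 had none, against 19.5% of all regions inside genes. Peaks are pooled over libraries in these H3K27ac lists, so no spread can be given.

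The second comparison sets the 2 E14.5 cartilages against the E12.5 mandible, and its outcome for 3 of the genes turned on the E12.5 library used. Sox5 had 3.804 kb in E12.5 replicate 1 and 23.6 kb in replicate 2, Sox6 5.37 and 19.4 kb, and Trps1 0.974 and 17.2 kb. Replicate 2 lay above every MC library for Sox5 and Trps1, within the MC range for Sox6, and below every FL library for all 3. Without E12.5 replicate 1, 24.7% of 16037 genes had every MC list below replicate 2, and 23.9% had every FL list above it. Replicate 1 lay below all 6 E14.5 libraries for these genes. Wwp2 had 4.66 and 6.39 kb at E12.5, below all 6 E14.5 values. That order rested on the scaling: as listed, Wwp2 had 7.846 and 6.066 kb at E12.5, within the E14.5 range of 5.753 to 13.48 kb. Nkx3-2 had 2.45 and 4.28 kb, within the E14.5 range, with replicate 2 above every MC library. As listed, it had 4.119 and 4.065 kb at E12.5, above every MC library (1.696, 1.989 and 3.213 kb) but within the FL range. The log2 ratio of replicate 1 to replicate 2 was -3.59 for Trps1, at the 0.19th percentile of all genes, -2.49 for Sox5, -1.77 for Sox6, -0.70 for Nkx3-2 and -0.42 for Wwp2, with a median of -0.59 over all genes.

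For MC minus E12.5, no gene of 16333 (0%) passed in limma, and 921 had an unadjusted p under 0.05, against 0 and 1276 without E12.5 replicate 1. Wwp2 differed by 0.97 (SE 0.386, adjusted p 0.712), by 0.75 without E12.5 replicate 1 and by 0.49 without scaling. After scaling it was the 1 gene of the 5 with every MC list above both E12.5 lists, a pattern held by 14.6% of all genes, and 3.86% had every MC list below both. As listed, Wwp2 overlapped, and Nkx3-2 had every MC list below both E12.5 lists. The shares of all genes with MC above and with MC below were then 7.5% and 8.56%. Sox5, Sox6 and Trps1 differed by 0.89 (SE 0.617), 0.79 (SE 0.492) and 1.36 (SE 0.833), and by -0.35, -0.10 and -0.43 without E12.5 replicate 1. Against replicate 1 alone they differed by 2.13, 1.67 and 3.16, with limma adjusted p-values of 0.0136, 0.0155 and 0.0119, when limma called 3892 genes. With 1 E12.5 library, these p-values assume that it varies like the MC and FL libraries and carry no information on spread at E12.5. Nkx3-2 differed by -0.32 (SE 0.492), by -0.66 without replicate 1 and by 0.03 against replicate 1 alone.

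For FL minus E12.5, no gene of 16333 (0%) passed in limma, and 2031 had an unadjusted p under 0.05, against 0 and 707 without E12.5 replicate 1. After scaling, Sox5, Sox6, Wwp2 and Trps1 had every FL list above both E12.5 lists, as did 16.6% of all genes, and 9.80% had every FL list below both. As listed, Sox6 alone of the 5 kept this order, and the shares of all genes were 10.3% and 14.2%. Their log2 differences were 1.40 (SE 0.617), 1.26 (SE 0.492), 0.55 (SE 0.386) and 1.98 (SE 0.833), with limma adjusted p-values of 0.401, 0.397, 0.475 and 0.399. Without E12.5 replicate 1 they were 0.16, 0.37, 0.34 and 0.19, and without scaling 0.94, 0.79, 0.09 and 1.60. Against replicate 1 alone, Sox5, Sox6 and Trps1 differed by 2.64, 2.14 and 3.78, with limma adjusted p-values of 0.0045, 0.00539 and 0.0045, when limma called 6307 genes, under the same assumption for a lone library. Nkx3-2 differed by -0.02 (SE 0.492), by -0.36 without replicate 1 and by 0.33 against replicate 1 alone. The MC and FL comparisons share the 2 E12.5 libraries.

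A few single regions separated the stages. In all 6 E14.5 lists and neither E12.5 list there were 3 regions, 1.49% of the 202, against 0.630% of all, and the same 3 are found when E12.5 replicate 1 is left out, against 16 regions when replicate 2 is left out. They were chr6:144298637-144300098 inside Sox5, with H3K27ac in both tissues, and 2 regions 716 and 482 kb below Trps1, chr15:49938482-49939627 and chr15:50171956-50172702, with H3K27ac in neither. The Sox5 region ranked at the 7.08th, 24.9th and 38.8th percentile in MC and at 76.5, 76.4 and 76.5 in FL. The first Trps1 region ranked at 79.2, 24.9 and 58.2 in MC and 89.2, 69.2 and 42.3 in FL, and the second at 80.5, 60.1 and 8.04 in MC and 76.7, 76.8 and 59.1 in FL. In both E12.5 lists and no E14.5 list there was 1 region, chr8:107557571-107558398 inside Wwp2, 0.415% of the 241 against 0.975% of all; it ranked at the 38th and 17.4th percentile. That count moved with the library. Without replicate 1, 34 regions were called in E12.5 and in no E14.5 list, and 6 without replicate 2. The shares of all regions with a library left out are not given, here or for the 16 regions above.

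Merged, the authors' combined ATAC lists gave 83 regions at the 5 genes. Of these, 17 (20.5%) were held by MC and FL without E12.5, against 7.09% of all 70861; 7 of the 17 were at Trps1, 4 at Wwp2 and 3 each at Sox5 and Sox6. E12.5 alone held 6 (7.23%, against 31.8% of all), and all 3 lists shared 22 (26.5%, against 34%). MC alone held 8 (9.64%, against 3.88%) and FL alone 20 (24.1%, against 15.4%), among them 9 at Sox6 and 6 at Sox5. MC and E12.5 shared 6 (7.23%, against 3.44%) and FL and E12.5 shared 4 (4.82%, against 4.39%). The E12.5 libraries differed here too: of the 39 regions in both combined cartilage lists, 17 lacked a peak in the combined E12.5 list (43.6%, against 17.3% of all), 69.2% lacked one in E12.5 replicate 1 (against 32% of all), and 6 lacked one in replicate 2 (15.4%, against 9.52%).

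**Figure D3:**
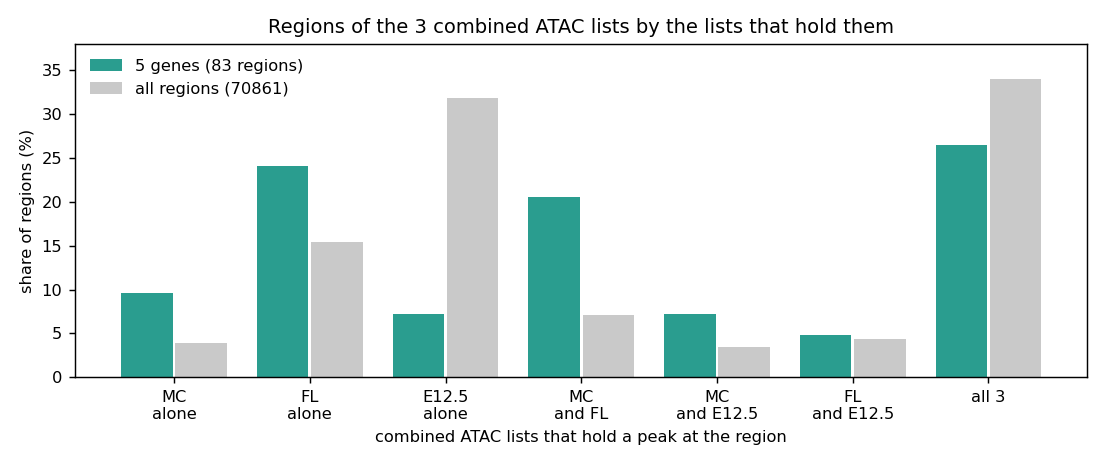
Share of regions (y axis, percent) of the merged combined ATAC lists, by which of the MC, FL and E12.5 lists held a peak (x axis), for the 83 regions of the 5 genes and for all 70861 regions. The share held by MC and FL without E12.5 is 20.5% at the 5 genes and 7.09% for all, and that held by E12.5 alone is 7.23% and 31.8%.

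The last comparison asks how far H3K27ac spread over each gene in the 2 cartilages, from the combined lists, which give no replicate check. In these lists Nkx3-2 differed most: MC had 3 peaks over 22.6 kb and FL 1 peak over 3.45 kb. The FL peak, chr5:41761491-41764943, sat on the gene, while MC had a wider peak there, chr5:41760829-41768803, and 2 more below the gene at chr5:41743088-41751059 and chr5:41753293-41759912 that FL lacked. The scaled log2 difference, MC minus FL, was 2.69, at the 87.5th percentile of 14451 genes; 18.8% of genes were at least 2-fold higher in MC and 15.6% at least 2-fold lower. Under the lower MC peak lay an ATAC region, chr5:41749946-41751204, 10.9 kb below the gene, called in MC replicates 1 and 3 and both E12.5 libraries and in no FL library. Both tissues covered the gene itself (100% of the span in MC and 99.7% in FL), so the difference lay in the flanks. All 3 MC peaks lay above the lowest signal of the FL list, and the FL peak was itself weak, at the 10.11th percentile of that list. When peaks were instead counted by midpoints inside the 2.74 kb gene span, the value was -2.93, since the midpoint of the MC peak on the gene lies above the span.

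Sox5 had 56 H3K27ac peaks over 506.4 kb in MC and 39 over 395.7 kb in FL, a scaled log2 difference of 0.51. They covered 39.0% of the gene span in MC and 31.5% in FL. Of these peaks, 21 of the MC list and 4 of the FL list overlapped no peak of the other tissue. The lists end at different signals, with the lowest total signal 16920 in MC and 25800 in FL, and 13 of the 21 unshared MC peaks lay under the FL minimum. With peaks at or above that minimum alone, Sox5 had 397.1 kb in the MC list, against 395.7 kb in the FL list, a log2 difference of 0.01 without scaling and 0.43 with it. Sox6 had 43 peaks over 298.7 kb in MC and 33 over 304.4 kb in FL, a difference of 0.13 that was -0.03 without scaling, with 13 and 5 unshared, of which 6 and 0 lay under the other list's minimum. Above the FL minimum it had 232.2 kb in the MC list, against 304.4 kb in the FL list, a difference of -0.39 without scaling and 0.04 with it. Trps1 had 15 peaks over 82.4 kb in MC and 13 over 129.7 kb in FL, a difference of -0.50, and 27.1% of its span was covered in MC against 48.7% in FL. Above the FL minimum Trps1 had 56.6 kb in the MC list, against 129.7 kb in the FL list, a difference of -1.19 without scaling and -0.76 with it. None of these 3 genes reached 2-fold with all peaks, scaled.

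In the combined lists, Wwp2 was marked almost from end to end in both tissues. Peaks covered 91.2% of its span in MC and 94.1% in FL. MC had 6 peaks, the widest of 43.4 kb and with the best peak at percentile 99.01 of total signal in its list; FL had 4, the widest of 58.3 kb and the best at percentile 99.26. The scaled log2 difference was -0.16, 0.29 for peaks with midpoints inside the gene span and 0.06 for peaks above the FL minimum. In the H3K27ac lists of single libraries, of whose peaks about 2% lay within 1 kb of a gene start against 19.5% and 20.4% in the combined lists, Trps1 had the opposite lean, 47.1 ± 2.57 kb in the MC libraries, against 32.5 ± 2.53 kb in the FL libraries (SD, n = 3 each; not scaled, libraries of the 2 tissues not overlapping). The other 4 genes overlapped in those lists, and the share of all genes that separate there was not counted. Nkx3-2, the most different in the combined lists, had 0.876 ± 0.94 kb in the MC and 0.504 ± 0.456 kb in the FL libraries. There Wwp2 had only 1.22 ± 0.667 kb in the MC and 1.74 ± 0.411 kb in the FL libraries (SD, n = 3 each). Its combined lists gave 117 kb in MC and 145.7 kb in FL.

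**Figure D4:**
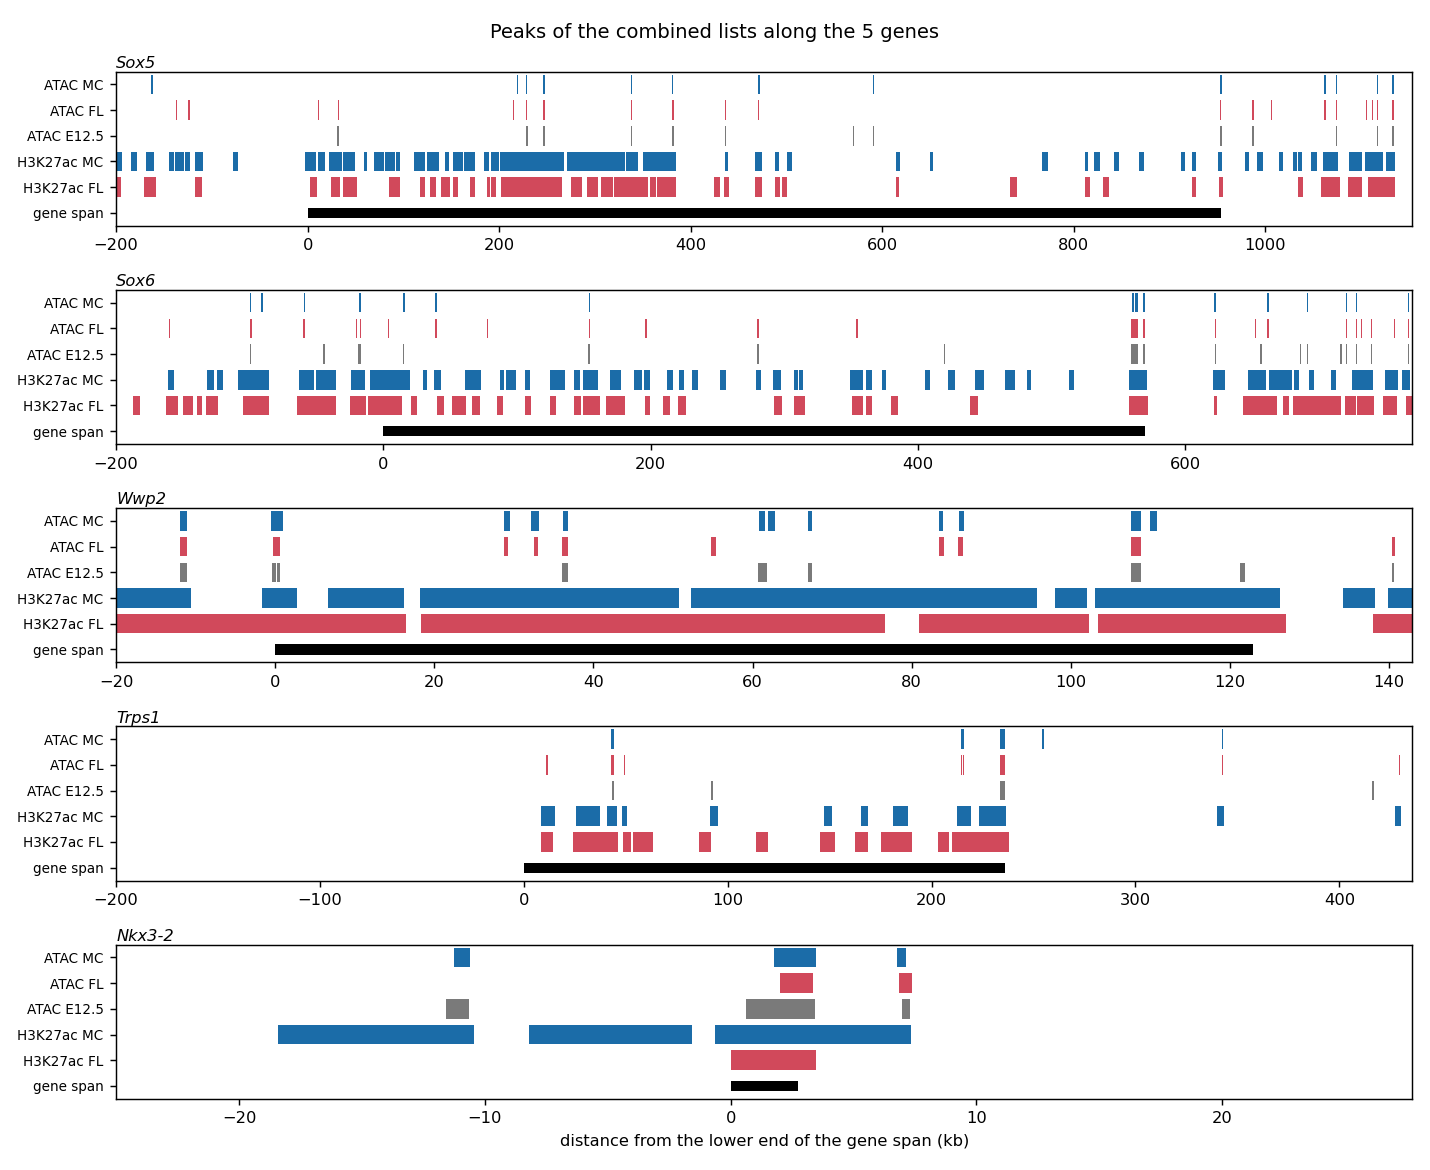
All peaks of the combined lists near each gene, including those tied to a neighbour, as distance in kb from the lower end of the gene span (x axis, up to 200 kb beyond Sox5, Sox6 and Trps1, 20 kb beyond Wwp2 and 25 kb beyond Nkx3-2). Rows are ATAC peaks of MC, FL and E12.5, H3K27ac peaks of MC and FL, and the gene span in black. H3K27ac fills nearly the whole Wwp2 span in both tissues, and MC has 2 H3K27ac peaks below Nkx3-2 that FL lacks.

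**Figure D5:**
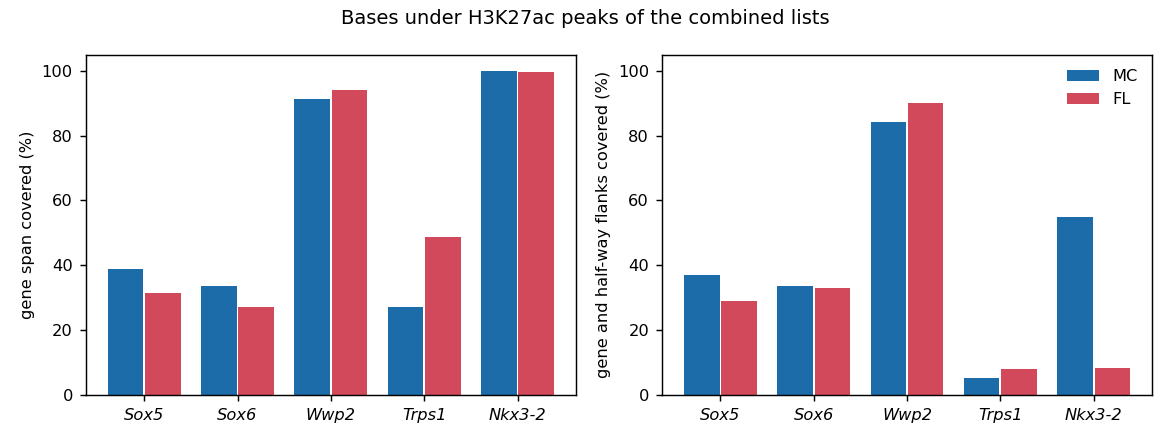
Percent of bases under H3K27ac peaks of the combined MC and FL lists (y axes), over the gene span on the left and over the span plus the flanks up to the middle of the gap to each neighbouring gene, at most 1 Mb, on the right. Nkx3-2 is at 100% and 99.7% over its span but at 55.0% in MC and 8.41% in FL with its flanks.

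Among other genes of the cartilage programme, chosen as lists, 0 were called by limma in each of the 3 comparisons. Of 4 other SOX genes (Sox13, of the SOXD group, and Sox8, Sox9 and Sox10), 3 were higher and 1 lower in MC. Their median log2 difference was 0.42 against 0.03 for all genes, and none had separate libraries. One of the 3 was Sox10, also in the neuron and Schwann marker list, with 0.452, 12.3 and 5.64 kb in the MC libraries. Sox9, the partner of SOX5 and SOX6, averaged 11.6 ± 1.95 kb in MC, against 14.6 ± 3.08 kb in FL. Of the 18 matrix genes, 14 were higher and 4 lower in MC (median 0.40), and 4 of the 18 (against 9.15% of all genes), Col2a1, Col11a2, Snorc and Cspg4, had every MC list above every FL list. Col2a1, which encodes the chief cartilage collagen, averaged 13.5 ± 3.93 kb in MC, against 7.24 ± 0.664 kb in FL (SD, n = 3 each). Of the 20 other regulators, 9 were higher and 11 lower (median -0.08). The receptors and factors Bmpr1b, Gli3, Foxa2 and Mef2c had every MC list below every FL list, as Sox5, Sox6 and Trps1 did, and Runx3 and Fgfr3 had every MC list above. These are 4 and 2 of 20, against 8.94% and 9.15% of all genes. Gli3, a hedgehog pathway factor, averaged 21.2 ± 2.86 kb in MC, against 31.6 ± 4.79 kb in FL. Fgfr3, a growth factor receptor that restrains chondrocyte growth, averaged 9.38 ± 3.42 kb in MC, against 3.63 ± 1.31 kb in FL. The list genes with separate libraries, and the genes given values, were picked after their values were seen.
Against E12.5, the medians of the SOX, matrix and other regulator lists were -0.12, 0.51 and 0.42 for MC (all genes 0.23) and -0.84, -0.02 and 0.33 for FL (all genes 0.25). Without E12.5 replicate 1 they were 0.32, 0.50 and 0.01 for MC (all genes 0.01) and -0.13, 0.35 and 0.06 for FL (all genes -0.02). Without scaling they were -0.60, 0.04 and -0.05 for MC (all genes -0.14) and -1.31, -0.34 and -0.08 for FL (all genes -0.10). The sign of the SOX list for MC and of the matrix list for FL thus changed with replicate 1. That of the other regulators changed with scaling for both tissues, as did the median of all genes. Their median lay above that of all genes in both tissues, with and without scaling.

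The genes whose profile over the 8 ATAC lists was most like that of each member were found by the root mean square difference of log2 cover, each centred on its mean. For Sox5 they were Sema5a (0.0558), Tle4 (0.0938) and S1pr1 (0.112), and for Sox6 they were Sox4 (0.0825), Fzd8 (0.086) and Ltbp1 (0.089). For Trps1 they were Lrig3 (0.0859), Mbnl1 (0.12) and Col25a1 (0.138), and for Wwp2 Bzw1 (0.122), Crebl2 (0.164) and Mcoln3 (0.171). Nkx3-2 had no close match (P2ry10 0.212, Myo5c 0.225 and Rxfp3 0.236). Under a difference of 0.25 there were 288 genes for Sox5, 426 for Sox6, 64 for Wwp2, 15 for Trps1 and 3 for Nkx3-2. The profiles share the libraries and their list lengths.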

How the data were processed

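ATAC-seq and H3K27ac CUT&Tag peak lists were analysed; the Hi-C and 4C samples are outside this work. The tools named in the submitters' processing notes are Trim Galore, Bowtie2, SAMtools, Genrich and SEACR, with build mm10; parameters and versions are not given in the sources used here. The deposited ATAC lists give the authors' signal per peak, at least 200 in every list, and the deposited H3K27ac lists the authors' total signal; both only ranked peaks within a list. Lists of single libraries and combined lists, pooled by the authors, were used, and the combined lists got no test. The E12.5 libraries were assigned by title and protocol, since their description field gives a different stage and assay.

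Peaks on autosomes and X were tied to 21627 RefSeq protein-coding genes. Each list's cover per gene was scaled to one common total, and log2(kb + 0.5) was fitted with limma 3.58.1 (R 4.3.3) on all 8 ATAC lists, two-sided, for 16333 genes with a mean of at least 0.3 kb, with a Benjamini-Hochberg threshold of 0.05. H3K27ac ratios used genes with a mean of at least 1 kb. Regions are merged peaks of the 8 lists, called in a list by an overlap of 1 bp. Percentiles of score are within a list. Simulated data with known changes were used to test the limma fit. Python 3.11.15, numpy 2.4.6, pandas 2.3.3 and matplotlib 3.10.9 were used. The 5 genes, the gene lists and the tests were chosen with earlier results of these data known. Named regions are every MC-only and FL-only region, up to 2 per gene of the stage classes, and the best-ranked region in all 8 lists per gene; like genes are the 3 nearest per gene; list genes are given as counts with up to 4 values. The Mir140 and Nkx3-2 flank regions were named after their values were seen.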

Additional observations from a re-analysis of the deposited data

How the results depend on the processing

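Alternatives covered the pseudocount, the filter, scaling, peak number in place of cover, distance to the gene, list length, the lists in the fit, a replicate block and each library left out. Of 270 refits of the 5 genes' ATAC differences, 252 kept their direction and their side of the threshold, 12 changed direction and 6 newly passed, all 6 without E12.5 replicate 2. The MC minus FL directions of Sox5, Sox6, Trps1 and Wwp2 held in every one of these refits. With each library left out in turn, MC minus FL ranged from -0.619 to -0.391 for Sox5, -0.519 to -0.407 for Sox6, -0.796 to -0.442 for Trps1, 0.224 to 0.611 for Wwp2 and -0.689 to 0.0424 for Nkx3-2. MC minus E12.5 ranged from -0.351 to 2.13, -0.0955 to 1.67, -0.434 to 3.16, 0.752 to 1.17 and -0.662 to 0.0264 in the same order, and FL minus E12.5 from 0.156 to 2.64, 0.373 to 2.14, 0.189 to 3.78, 0.342 to 0.762 and -0.366 to 0.367. Nkx3-2 also changed direction to 0.339 for MC minus FL with the number of peaks. For FL minus E12.5 its value was 0.00223 with a pseudocount of 2 kb, 0.0134 within 100 kb, 0.112 inside the gene span and 0.171 with lists of equal length.

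Genes called by limma numbered 0 in each comparison, and 19, 9 and 5 with a pseudocount of 0.1 kb (MC minus FL, MC minus E12.5, FL minus E12.5). With only MC and FL fitted, 8 were called. With each library left out the counts ranged from 0 to 8, 0 to 3892 and 0 to 6307. Deviations of same-numbered MC and FL libraries were only weakly correlated (0.0448, 0.0499 and 0.0466, each the highest for its number). Libraries of different numbers had correlations of -0.0421 to -0.00546. The fit with the replicate block called 0 genes in each comparison, with 727, 696 and 1340 at an unadjusted p under 0.05. The median over genes was 0.233 with scaling and -0.135 without it for MC minus E12.5, and 0.252 and -0.103 for FL minus E12.5.

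Counts of regions (5 MC-only, 1 FL-only, 3 in all 6 E14.5 lists alone, 1 in both E12.5 lists alone, 11 in all 8) moved with the calling rule. When a peak had to cover at least 50% of the region, there were 3 MC-only, 4 FL-only and 3 in all 8. With lists of equal length, there were 0 FL-only, 5 E14.5-only and 0 E12.5-only. With the better-scoring 50% of each list, there were 0 MC-only, 3 FL-only, 0 E12.5-only and 7 in all 8. Within 100 kb, there were 0 FL-only and 1 E14.5-only. In 2 or 3 lists of a tissue and none of the other there were 13 MC and 17 FL regions, and 24 in the 7 lists other than E12.5 replicate 1. With each library left out, the counts ranged from 5 to 11, 1 to 11, 3 to 16, 1 to 34 and 11 to 24. The shares of all regions with a library left out are not given. For H3K27ac, Sox6 changed direction to -0.0274 without scaling, Wwp2 to 0.29 inside the gene span and 0.054 by bases of the gene and its flanks, and Nkx3-2 to -2.93 inside the gene span. The Nkx3-2 difference was 5.60 with the better-scoring 50% of each list. That setting drops the only FL peak, at the 10.11th percentile of its list, so the value rests on the added 0.5 kb. With only peaks at or above the higher of the lowest signals of the MC and FL lists, Wwp2 changed direction to 0.0611 with scaling and Sox6 to -0.39 without it, where Trps1 was -1.19 and Sox5 0.00513. The settings of 2 or 3 lists, 7 lists, covered bases and a common lowest signal were chosen after seeing the data. The cause of the other changes was not tested. Lists that hold only called peaks cannot show weaker signal, and with unknown depth a missing peak does not show closed chromatin.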
